A study of Mus musculus with 46 samples.

Results

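Neutrophil granule and alarmin genes were followed as a set of 10 genes in the RNA of MC-38 tumors and cultured MC-38 cells, out of 48795 genes in the table, 32043 of which were above 0 in at least 1 of the 46 samples. They were Elane and Mpo of the azurophil granules, Ngp, Camp, Ltf and Lcn2 of the specific granules, the alarmins S100a8 and S100a9, and Retnlg and Chil3. The members were chosen by their higher values in tumors labelled PD-1cKO than in WT tumors, so that contrast is given as a description with no test.

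A neutrophil loads its granules while it matures in the bone marrow, and the order is fixed. Elastase (Elane) and myeloperoxidase (Mpo) are made by promyelocytes, then neutrophilic granule protein (Ngp), cathelicidin (Camp), lactoferrin (Ltf) and lipocalin-2 (Lcn2) by myelocytes and metamyelocytes. The mature cell in blood and tissue has stopped most granule transcription and keeps S100a8 and S100a9, whose products pair to form calprotectin. Retnlg, a resistin-like secreted protein, marks mature neutrophils and some monocytes, and Chil3, a chitinase-like protein also called Ym1, is made by neutrophil precursors and by monocytes and alternatively activated macrophages too. Lcn2 and Ltf are also made by glandular epithelium. In a whole tumor, fewer cells of a type and less RNA per cell cannot be told apart.

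MC-38 is a mouse colon carcinoma line, injected under the skin of the right flank of female C57BL/6NTac mice aged 8 to 10 weeks. The samples were 3 cultures of the cells, 3 untreated baseline tumors, and 5 tumors each under isotype control or the anti-mouse PD-1 antibody muDX400 at 5 mg/kg (PD-1 Ab), taken 4 days after 1 dose (day 11 after implant) or 8 days after the first of 2 doses (day 15). The other 20 tumors, labelled 28 days, were 10 labelled PD-1cKO and 10 from littermate controls (WT), and the mice of both genotypes received tamoxifen at 40 mg/kg on consecutive days. In PD-1cKO mice a Cre-ERT2 at the Rosa26 locus deletes exons of Pdcd1 on tamoxifen in every cell type of the host, not in T cells alone. Whole-gene Pdcd1 was 5.05 to 19.9 FPKM (fragments per kilobase of transcript, scaled to library size) in PD-1cKO tumors and 1.71 to 7.02 in WT tumors. A whole-gene value does not separate the deleted exons and so does not check the genotype label.

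Libraries stood apart in known ways. In 1 isotype tumor of day 11 (replicate 1), 54.6% of the FPKM was mitochondrial, against 0.169% to 7.65% in the other 45 samples. Short noncoding genes took 30.2% to 66.5% of the FPKM in the 20 tumors of tamoxifen-treated mice and at most 0.0817% elsewhere, so levels are not set between those 2 studies as a result. Within PD-1cKO that share was highest in tumors 8 (66.5%), 4 (64.0%) and 5 (61.5%). It was 55.0% in tumor 7, with a group median of 54.0%, and its part in the members' values was not tested. The sample identifiers fell into runs: PD-1cKO tumors 1 to 7 form a run with no WT tumor, PD-1cKO tumor 8 shares a run with 9 WT tumors, and PD-1cKO tumors 9 and 10 share a run with 1. What a run stands for is not given in the sources used here. Read counts were not used, so the depth of each sample is unknown, and an exact 0 means only that a gene is listed at 0.

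The sequence upstream of the start site is shown for Ngp, Ltf and S100a9, which ran together across tumors as described below, and for Chil3, which did not. The stretches are from RefSeq promoters on GRCm38.p6, cut back to the bases outside all GENCODE M21 transcripts of the gene, read 5′ to 3′ on the gene's strand. Capitals mark matches to a C/EBP-type motif (TTNNGNAA on either strand, overlaps counted separately), since C/EBP factors drive granule genes in granulocyte precursors.
Ngp, chr9:110419558-110419746, plus strand: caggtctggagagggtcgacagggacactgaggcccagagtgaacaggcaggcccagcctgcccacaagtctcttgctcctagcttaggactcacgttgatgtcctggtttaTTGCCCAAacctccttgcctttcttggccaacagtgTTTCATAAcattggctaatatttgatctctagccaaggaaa
Ltf, chr9:111019042-111019270, plus strand: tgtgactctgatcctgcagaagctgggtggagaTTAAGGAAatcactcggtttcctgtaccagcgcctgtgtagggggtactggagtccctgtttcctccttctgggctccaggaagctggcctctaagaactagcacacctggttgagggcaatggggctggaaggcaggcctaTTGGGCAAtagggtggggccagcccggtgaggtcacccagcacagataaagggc
S100a9, chr3:90695722-90695971, minus strand: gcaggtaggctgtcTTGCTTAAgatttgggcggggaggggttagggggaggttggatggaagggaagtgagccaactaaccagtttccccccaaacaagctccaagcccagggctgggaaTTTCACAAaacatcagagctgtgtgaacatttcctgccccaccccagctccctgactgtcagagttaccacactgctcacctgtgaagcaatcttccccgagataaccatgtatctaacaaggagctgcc
Chil3, chr3:106167565-106167814, minus strand: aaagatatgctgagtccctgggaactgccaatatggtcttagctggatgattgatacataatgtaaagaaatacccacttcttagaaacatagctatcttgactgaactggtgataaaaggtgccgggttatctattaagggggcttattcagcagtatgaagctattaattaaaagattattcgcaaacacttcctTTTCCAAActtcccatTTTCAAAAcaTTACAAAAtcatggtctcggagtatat

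All 10 members had a RefSeq promoter. In the 250 bases before the start, 7 of the 10 held the C/EBP-type motif: 3 matches for Ngp and Chil3, 2 for Ltf and S100a9, and 1 for Lcn2, S100a8 and Retnlg, against 36.9% of 27025 promoters with at least 1. Camp, Elane and Mpo held no match to these letters in that window. Ngp, Camp and Ltf lie on chromosome 9 between 109847379 and 111042767, S100a8, S100a9 and Chil3 lie on chromosome 3, and the others on 4 further chromosomes. Of the 50-base stretches of Chil3 transcripts, 26.9% also occur in another gene, most in Chil4, so its level is uncertain where reads could be shared. For Mpo that share was 0.228%, and for the other members 0%.

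Elane, Mpo, Ngp and Camp were below 1 FPKM in every sample outside the PD-1cKO tumors. Elane was listed at 0 in the 3 cultures, the 3 baseline tumors and all 10 tumors of day 11, and its highest value outside PD-1cKO was 0.182 FPKM. Ngp did not exceed 0.457 FPKM and Mpo did not exceed 0.468 FPKM in any of the other 36 samples. Camp reached 0.931 FPKM in 1 WT tumor and was at most 0.220 in the other 35. Ltf reached 1.60 FPKM in a PD-1 Ab tumor of day 15, and Lcn2 4.04 FPKM in an isotype tumor of day 15. The alarmins were measurable in tumors of every treated group. Among the groups without tamoxifen, the mean of S100a8 followed the order isotype day 15 (3.30 FPKM), isotype day 11 (2.28), PD-1 Ab day 11 (1.57), PD-1 Ab day 15 (0.637), cultures (0.503) and baseline (0.407). With tamoxifen it was 24.8 FPKM in PD-1cKO and 1.32 in WT. For Lcn2 the means were 2.38 FPKM in isotype day 15, 2.15 in PD-1 Ab day 15, 1.29 in isotype day 11, 1.13 in PD-1 Ab day 11, 0.534 in baseline tumors and 0.303 in cultures. In PD-1cKO its mean of 3.21 FPKM lay far above its median of 0.740, since tumor 7 held 66.1% of the group's sum.

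**Figure D1:**
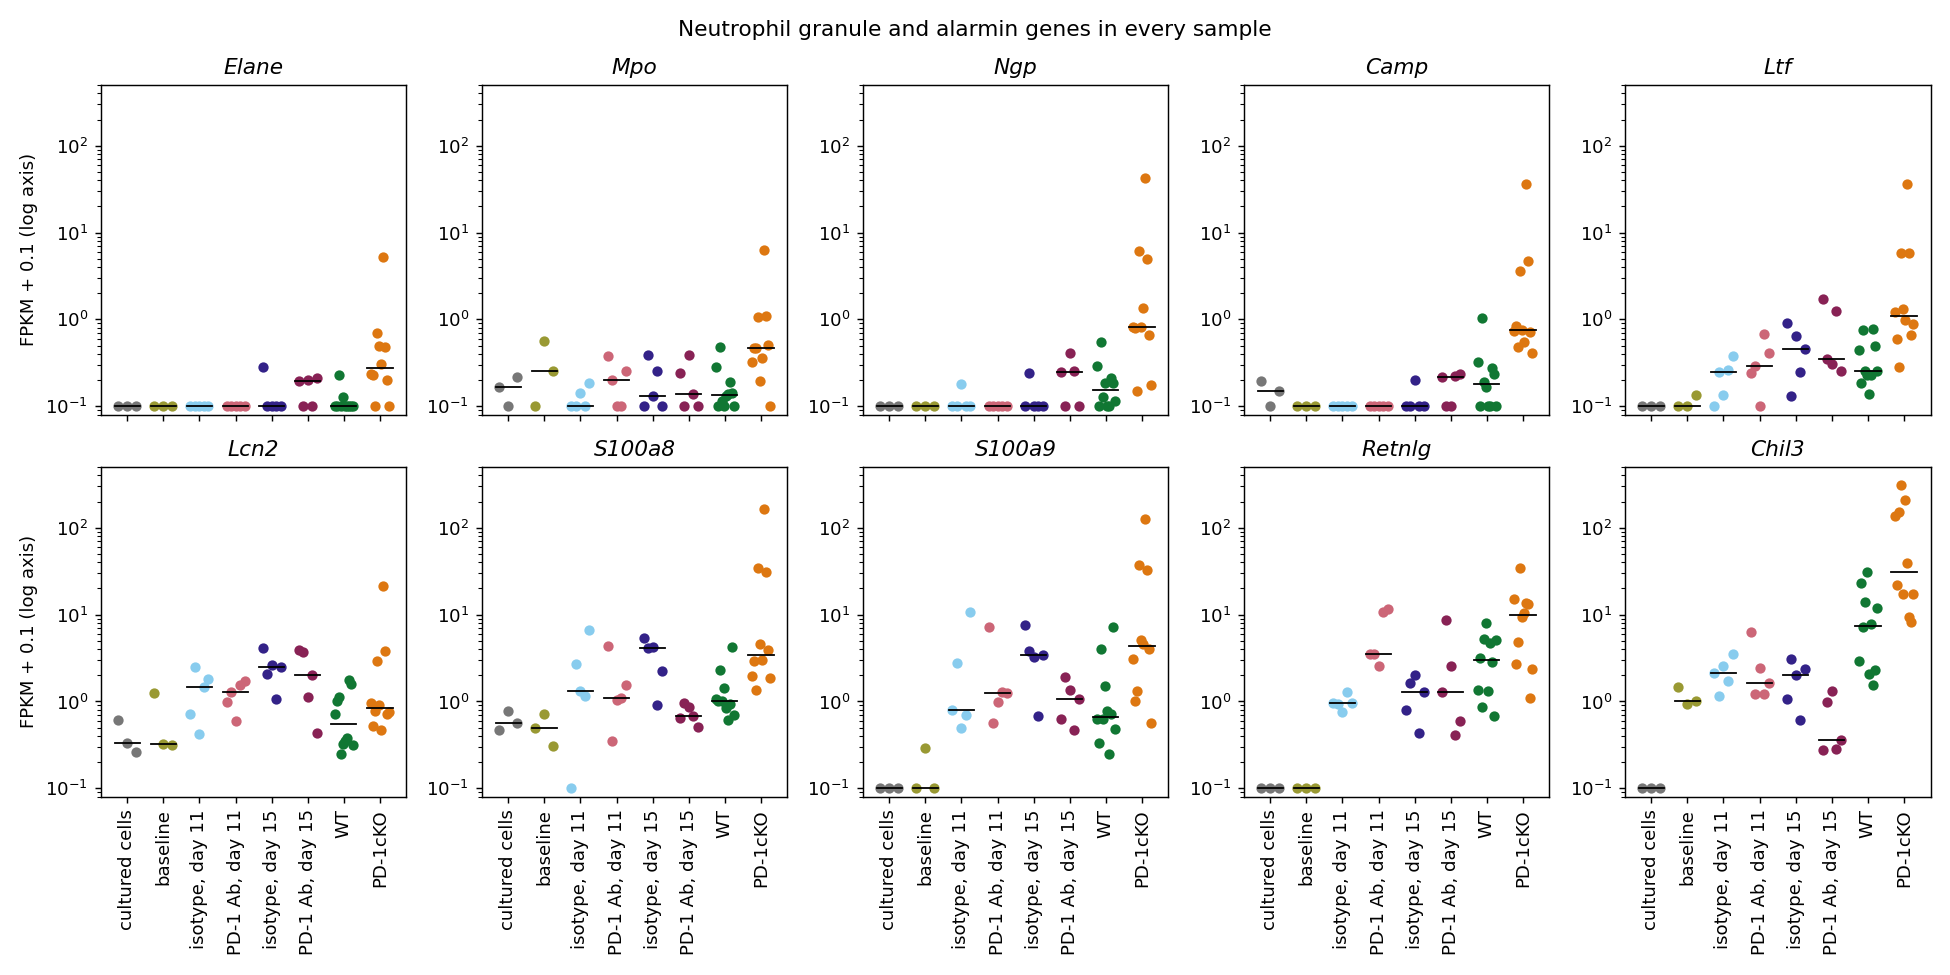
Each panel plots 1 gene, each point 1 of the 46 samples by group on the x axis, and FPKM + 0.1 on a log y axis, with the group median as a bar. In the PD-1cKO group the points for Ngp, Camp, Ltf, Lcn2, S100a8 and S100a9 spread from the WT range up to 42.3, 36.5, 36.3, 21.2, 164 and 125 FPKM.

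In tumors labelled PD-1cKO all 10 members had a higher mean log2 value than in WT, where 36.3% of the 15075 genes did; the members were selected on this contrast, so nothing is read from their count. The median log2 difference of the members was 2.43, against -0.20 over the 15075 genes. The means hide a very uneven group. Ngp was 42.3, 6.06 and 4.81 FPKM in PD-1cKO tumors 7, 4 and 8, was next highest at 1.26 in tumor 6, and went down to 0.0481 in tumor 3, and the WT tumors ran from 0 to 0.457 with a median of 0.0559. Tumor 7 alone held 73.9% of the group's summed Ngp.

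The same 3 tumors led for 7 of the 10 members. Camp, an antimicrobial peptide precursor, was 36.5 FPKM in tumor 7, 4.64 in tumor 8 and 3.49 in tumor 4, then 0.738 in the next. Ltf, an iron-binding granule protein, was 36.3, 5.77 and 5.74 FPKM in tumors 7, 8 and 4, then 1.20. Lcn2, which binds bacterial siderophores, was 21.2, 3.67 and 2.82 in tumors 7, 8 and 4, then 0.865, a value inside the WT range of 0.147 to 1.69. For Camp too, only these 3 tumors were above every WT tumor, and all 10 were above the WT median. Mpo, the peroxidase of azurophil granules, was far lower, at 6.12, 1.00 and 0.970 FPKM in tumors 7, 8 and 4 and at most 0.403 in the others. Elane was 5.10 FPKM in tumor 7, 0.602 in tumor 4 and 0.401 in tumor 5, with tumor 8 next at 0.386.

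The alarmins were the most abundant of these in the same tumors. S100a8 was 164, 34.2 and 30.7 FPKM in PD-1cKO tumors 7, 4 and 8, next 4.48 in tumor 5, and 1.26 in the lowest. S100a9, its partner subunit, was 125, 37.1 and 32.3 FPKM in the same order, next 5.03, and 0.462 in the lowest. WT tumors ran from 0.511 to 4.16 FPKM for S100a8 and from 0.146 to 7.14 for S100a9. So 4 PD-1cKO tumors were above every WT tumor for S100a8 and 3 for S100a9.

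Retnlg and Chil3 followed another order of tumors. Retnlg was highest in tumor 4 (33.9 FPKM), then in tumor 1 (14.9), tumor 7 (13.6) and tumor 8 (13.2), and it lay above the whole WT range in 6 of the 10. Chil3 was 307, 207, 151 and 135 FPKM in tumors 4, 6, 3 and 1, but only 39.2 in tumor 7 and 9.25 in tumor 8, near the lowest of the group (8.12 in tumor 9). Its WT tumors ran from 1.45 to 30.6 FPKM. Tumor 3 shows the divergence most plainly: it had the lowest Ngp and S100a8 of the group and the third-highest Chil3.

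**Figure D2:**
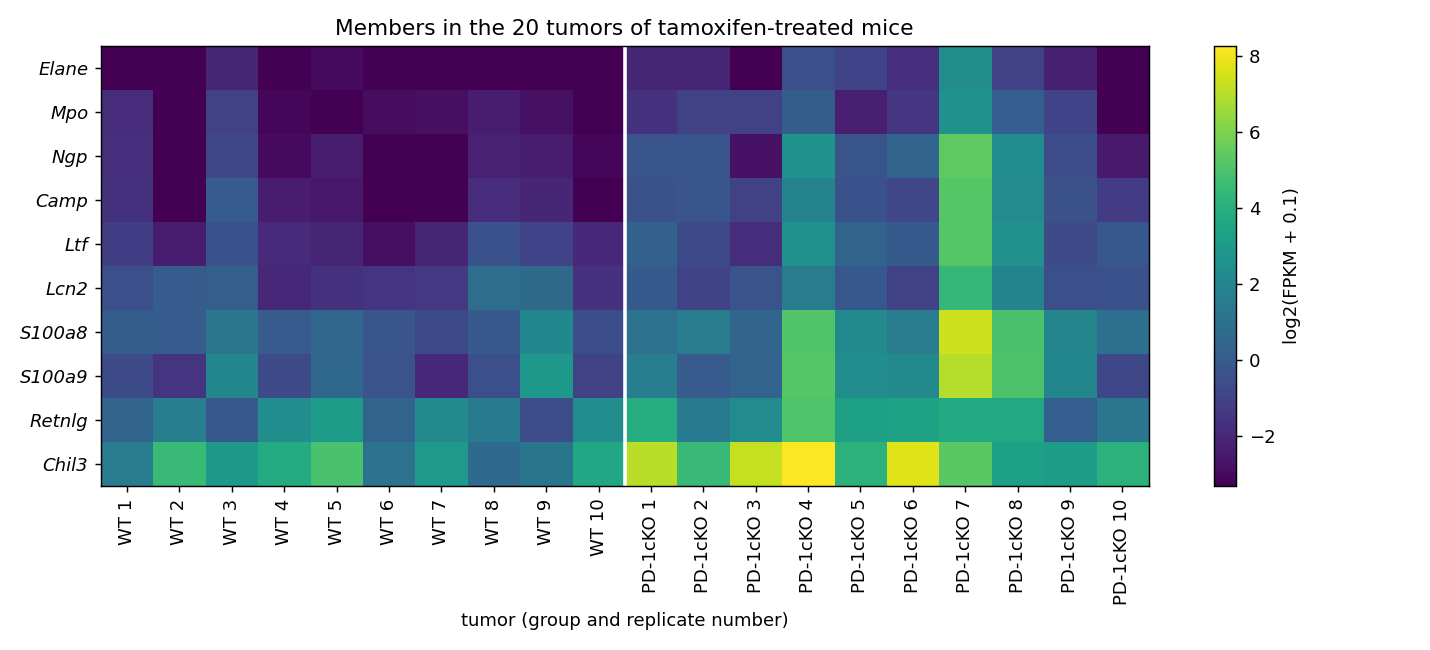
The color of each cell is log2(FPKM + 0.1) of 1 member (rows) in 1 of the 20 tumors of tamoxifen-treated mice (columns, WT then PD-1cKO, by replicate number). PD-1cKO tumors 4, 7 and 8 are bright from Elane to S100a9, while the Chil3 row is brightest in tumors 4, 6, 3 and 1.

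Correlations of log2(FPKM + 0.1) over the 10 PD-1cKO tumors describe the same split. They have no p here, since the points share library composition. Ngp and Camp had Pearson's r = 0.94 and Spearman's rho = 0.81, Ngp and S100a8 r = 0.95 and rho = 0.84, and S100a8 and S100a9 r = 0.95 and rho = 0.93. Without the 2 tumors farthest from the median of the x measure, those r were 0.83, 0.85 and 0.87. Ngp and Chil3 had r = 0.06 and rho = 0.27, and S100a8 and Chil3 r = -0.06 and rho = -0.09. Retnlg stood between, with r = 0.61 to Ngp and r = 0.59 to Chil3.

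The WT tumors, at far lower levels, had a like arrangement in parts. Ngp and Camp had r = 0.97, S100a8 and S100a9 r = 0.94, and Retnlg and Chil3 r = 0.68 (n = 10), while Retnlg and S100a8 had r = -0.64. That last r was 0.10 without the 2 farthest tumors. WT tumor 3 had the highest Ngp (0.457 FPKM) and Camp (0.931) of its group and WT tumor 9 the highest S100a8 (4.16) and S100a9 (7.14).

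**Figure D3:**
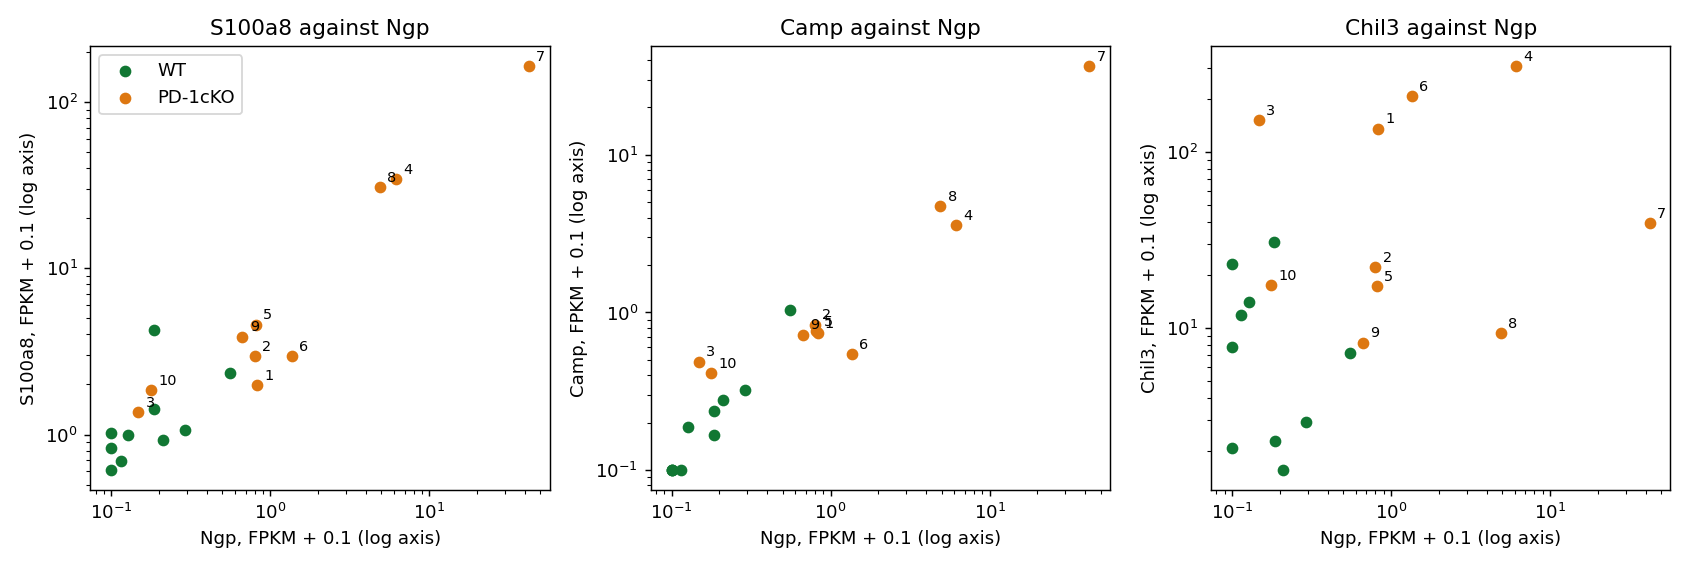
Each point is 1 tumor of a tamoxifen-treated mouse, with Ngp as FPKM + 0.1 on a log x axis and S100a8, Camp or Chil3 as FPKM + 0.1 on a log y axis, and replicate numbers beside the PD-1cKO tumors. S100a8 and Camp climb with Ngp to tumor 7 (164 and 36.5 FPKM), and Chil3 does not (39.2 FPKM in tumor 7, 307 in tumor 4).

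These differences were also set beside the runs of sample identifiers. Within the run shared by PD-1cKO tumor 8 and 9 WT tumors, tumor 8 was above all 9 for Ngp (4.81 against at most 0.457 FPKM), Camp, Ltf, Lcn2, S100a8 (30.7 against at most 4.16), S100a9, Retnlg, Elane and Mpo. For Chil3 it was not, at 9.25 FPKM against 1.45 to 30.6. In the run of tumors 9 and 10 with 1 WT tumor, Chil3 was 8.12 and 17.4 FPKM against 11.7, and Retnlg 0.986 and 2.26 against 4.97. All Chil3 values above 30.6 FPKM came from the run without a WT tumor, where genotype and run cannot be told apart. With the run as a covariate the log2 difference of Chil3 went from 2.75 to 0.36 and that of Retnlg from 1.50 to 0.75, whereas that of Ngp went from 2.98 to 3.44 and that of S100a8 from 2.47 to 3.49. Those fitted differences rest mostly on tumor 8. The highest value of every other member also came from the run without a WT tumor, in tumor 7, or in tumor 4 for Retnlg. For those values too, genotype and run cannot be told apart, so the fits do not separate the run from the differences.

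Defining markers of neutrophils were then set beside the members. Ly6g, the usual surface marker of mouse neutrophils, was listed at 0 in 5 of 10 PD-1cKO tumors and was 1.39 FPKM in tumor 7 and at most 0.183 in the others. Cxcr2, the chemokine receptor of mature neutrophils, was 1.60 FPKM in tumor 7, and at most 0.518 elsewhere in the group, against 0.0916 to 0.353 in WT. Cd177, a neutrophil surface protein of the specific granules, was 8.53, 1.33 and 1.25 FPKM in tumors 7, 4 and 8, and Itgb2l was 1.65, 0.648 and 0.625 in the same order. Mmp8, neutrophil collagenase, was highest in tumor 7 (7.11 FPKM). Csf3r, the receptor for G-CSF, was 10.6, 10.2 and 7.96 FPKM in tumors 8, 7 and 4. Padi4, which citrullinates histones, was highest in tumor 4 (8.95 FPKM). Mmp9, the gelatinase, did not follow them: it was 10.9 FPKM in tumor 8 and 20.9 in tumor 4, the lowest of the group, and 90.9 in tumor 7, near the group median of 96.2. It was 14.5 to 16.1 in the cultures, which hold no neutrophils. In tumor 7 the precursor-stage gene Ngp was 42.3 FPKM where Ly6g was 1.39 and Cxcr2 1.60, both scales being per length.

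Other neutrophil lists are described by counts with no test. They are counted over every gene of a list, without the filter on low values, which some genes pass through PD-1cKO alone. The 36.3% of genes higher in PD-1cKO is of genes that passed that filter. So these counts, and those of the lists further below, have no matching share over all genes. Some list genes lie near the floor: Ctsg, Ms4a3, Prss57 and Fcnb had means under 0.5 FPKM in both groups. Of other azurophil genes, 8 of 8 were higher (median log2 difference 1.06), among them the transcriptional repressor Gfi1 (1.55) and proteinase 3 (Prtn3, 1.50). Of other specific and gelatinase granule genes, 13 of 15 were higher (median 0.90), among them lysozyme (Lyz2, 1.64, also a macrophage gene) and Pglyrp1 (1.50). Of mature neutrophil receptors and effectors, 20 of 23 were higher (median 0.56), with Clec4d (1.72) and Wfdc21 (1.64) the largest. Of the CXCR2 ligands and granulocyte growth factors 4 of 7 were higher (median 0.0038), with Cxcl5 at 0.73. Cxcl1, a main neutrophil attractant, was 1.59 ± 0.797 FPKM (SD, n = 10) in PD-1cKO and 3.52 ± 1.56 in WT, with all 10 PD-1cKO tumors below the WT median. Among receptors and relatives of the alarmins 4 of 9 were higher (median -0.05), and Tlr4 and Ager, receptors of S100a8 and S100a9, differed by 0.26 and 0.04.

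The lists of T cells, monocytes and macrophages were highest in the tumors that led for most members, and those of eosinophils and mast cells followed other orders. The part of these lists in the result was not tested. The summed levels of the T cell list were 134, 104 and 78.7 FPKM in PD-1cKO tumors 8, 4 and 7, at most 63.5 in the others of the group, and 12.1 to 46.9 in WT. The monocyte list was also highest in tumors 8, 4 and 7 (276, 203 and 183 FPKM, WT 51.8 to 94.6), and the macrophage list in tumors 4, 8 and 7 (4630, 3854 and 3529, WT 954 to 1588). All 8 T cell genes and all 8 macrophage genes had higher means in PD-1cKO (median log2 differences 1.70 and 1.08), among them Cd8b1 (2.07), Cd3e (1.96) and Cd68 (1.32). So did 4 of 6 monocyte genes (0.50), led by Ace (2.20) and Ly6c2 (1.09). Of eosinophil genes 8 of 8 were higher (0.75; Siglecf 2.05, Prg2 1.83) and of mast cell genes 7 of 7 (0.85; Cpa3 1.52, Tpsb2 1.30). The eosinophil list was highest in tumors 4 and 1 (108 and 62.8 FPKM). It was 36.7 in tumor 7 and 25.1 in tumor 8, inside the WT range of 3.60 to 50.3. The mast cell list was highest in tumors 8 and 9 (51.8 and 23.6 FPKM). It was 16.1 in tumor 4 and 12.1 in tumor 7, inside the WT range of 6.15 to 16.5. Of platelet genes 7 of 8 were higher (0.43; Pf4 1.05, Itga2b 0.98), of progenitor genes 4 of 6 (0.17; Kit 0.56, Cd48 0.38) and of keratinocyte genes 6 of 8 (0.18; Sbsn 0.67, Krt14 -0.18).

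Blood and marrow lists were also set beside them. The red blood cell list had its highest PD-1cKO sums in tumors 8, 7 and 4 as well (430, 194 and 192 FPKM, at most 110 in the others), but WT tumors reached 238, and 5 of 10 genes were higher (median log2 difference 0.04). The B lymphocyte precursor genes of bone marrow summed to at most 0.400 FPKM in any PD-1cKO tumor, and Igll1 and Rag2 were listed at 0 in all 10.

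The genes whose pattern was most like the mean of Ngp, Camp, Ltf and Lcn2 over the 10 PD-1cKO tumors, among 13023 with a mean of at least 1 FPKM, were Cd177 (r = 0.94), Wfdc21, Vamp8, Prtn3, Gdf10, Sulf2, Trac, Serpinb1a, Arsi and Adck2 (r = 0.90 for the tenth). Of these Cd177, Wfdc21, Prtn3 and Serpinb1a are genes of neutrophil granules or neutrophils, and Trac is a T cell gene. Without the 2 tumors farthest from the median, r was 0.72 for Cd177, 0.70 for Prtn3 and 0.78 for Serpinb1a. It was 0.93 for Wfdc21, 0.90 for Trac and 0.80 to 0.94 for the rest. Over the 20 tumors of the antibody groups the list was another. It held Adig (r = 0.83), Krt18, Krt19, Epcam, Pgbd5, Mrap, Apoc1, Fabp4, Sncg and Ly6d (r = 0.77 for the tenth). Krt18, Krt19 and Epcam are genes of simple epithelium, and Adig and Fabp4 are genes of fat cells. Lcn2 and Ltf correlated at r = 0.69 there, and Lcn2 and Ngp at r = 0.05. Under isotype, Ngp was listed at 0 in 4 of 5 tumors at each day, and Camp in 5 of 5 at day 11 and 4 of 5 at day 15. Under PD-1 Ab both were at 0 in 5 of 5 at day 11 and 2 of 5 at day 15. So the mean of the 4 genes rested mostly on Lcn2 and Ltf there, and this list does not describe Ngp and Camp.

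The antibody groups are the comparison the members were not chosen by, and they were tested with limma on log2(FPKM + 0.1), with Benjamini-Hochberg adjustment over all genes tested. A gene was called at an adjusted p under 0.01 with at least a 2-fold change, and was tested where its mean was at least 0.5 FPKM in a group compared, which leaves out Elane, Mpo, Ngp and Camp in every tested comparison and Ltf in all that did not involve PD-1 Ab at day 15.

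At day 15, S100a8 fell under PD-1 Ab, and S100a9 and Chil3 had lower values that did not pass. S100a8 was 5.33, 4.05, 4.17, 0.821 and 2.14 FPKM in the isotype tumors and 0.554, 0.871, 0.772, 0.575 and 0.414 in the PD-1 Ab tumors. The groups overlapped through isotype tumor 4, which was below PD-1 Ab tumor 2. The log2 fold change was -2.00 ± 0.43 (SE), with an adjusted p = 0.00836 by limma. The call is a narrow one. It was lost in 9 of the 10 fits that left out a tumor (adjusted p up to 0.0235) and it was 0.00102 without isotype tumor 4.

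S100a9 was 7.47, 3.67, 3.19, 0.585 and 3.28 FPKM under isotype and 0.526, 1.82, 1.27, 0.364 and 0.982 under PD-1 Ab, with a log2 fold change of -1.61 ± 0.58 (SE) and limma adjusted p = 0.0615. Again isotype tumor 4 was the lowest of its group, and without it S100a9 was called lower (-2.13, limma adjusted p = 0.00775). Chil3 was 0.978, 3.01, 1.93, 0.519 and 2.24 FPKM under isotype and 0.175, 0.880, 1.22, 0.182 and 0.261 under PD-1 Ab (-1.62 ± 0.56, limma adjusted p = 0.0532).

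Retnlg at day 15 ranged from 0.328 to 1.93 FPKM under isotype and from 0.306 to 8.49 under PD-1 Ab, with PD-1 Ab tumor 2 alone above 2.47 (log2 fold change 0.45 ± 0.75, limma adjusted p = 0.686, and -0.19 without that tumor). Lcn2 overlapped widely, at 0.981 to 4.04 FPKM against 0.330 to 3.85 (-0.41 ± 0.57, limma adjusted p = 0.621). Ltf was 0.0312 to 0.818 FPKM against 0.156 to 1.60 (0.55 ± 0.67, limma adjusted p = 0.570). Ltf passed the filter on low values through PD-1 Ab alone, which favours a rise, so its difference is no support for one. Ngp and Camp, too low to be tested, were each listed at 0 in 4 of 5 isotype tumors and in 2 of 5 PD-1 Ab tumors, and neither passed 0.307 FPKM.

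So 1 of the 6 members tested was called lower and 0 higher at day 15, where 0.272% of the 15062 genes were called lower and 5.03% higher. For 0 members did the groups not overlap, against 9.23% of genes with every PD-1 Ab tumor above every isotype tumor and 6.12% with every one below. The median log2 fold change of the 6 members tested was -1.01, that of all genes -0.04. Elane, Mpo, Ngp and Camp, too low to be tested, are not in that median. Their mean log2 values under isotype and PD-1 Ab were -3.02 and -2.71 for Elane and -3.07 and -2.39 for Ngp. They were -3.12 and -2.62 for Camp and -2.58 under both for Mpo. So the median does not describe the whole set.

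**Figure D4:**
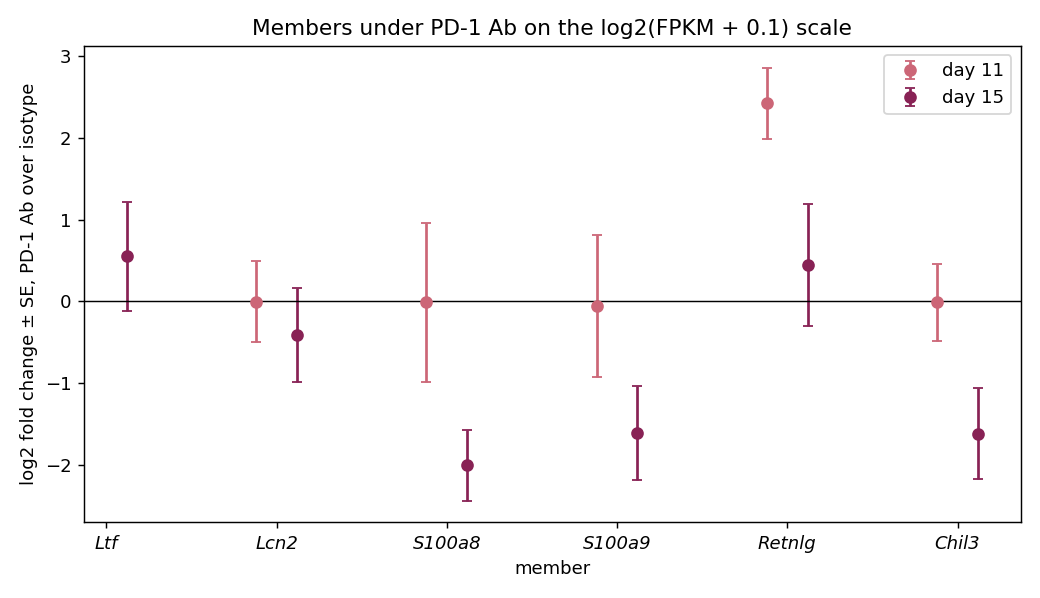
Points are log2 fold changes of PD-1 Ab over isotype on the log2(FPKM + 0.1) scale for the members tested (x axis), with the limma SE as bars, at day 11 and day 15. Retnlg is at 2.43 at day 11 and 0.45 at day 15, and S100a8, S100a9 and Chil3 are near 0 at day 11 and between -1.61 and -2.00 at day 15.

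Among other neutrophil genes of day 15, some rose under PD-1 Ab. Of mature neutrophil receptors and effectors 5 of 14 rose and 0 fell (median log2 fold change 1.22), with the largest changes in Acod1 (2.83, limma adjusted p = 0.000806), which makes itaconate, in Clec4d (2.35, limma adjusted p = 0.00204) and in Csf3r (1.98, limma adjusted p = 0.00122). Csf3r was 2.80 to 4.74 FPKM under isotype and 6.62 to 20.4 under PD-1 Ab, so the groups did not overlap. Macrophages and monocytes also express Acod1 and Clec4d. Of specific and gelatinase granule genes 4 of 10 rose and 1 fell (median 1.02): Lyz2 (1.78), the oxidase subunit Cybb (1.44) and Pglyrp1 (1.34) were the largest, and the antiprotease Slpi was the one that fell (-1.32). Of azurophil genes 1 of 4 rose, Gfi1 (2.01). Gfi1 passed the filter on low values through PD-1 Ab alone, as did 1 of the 10 specific granule genes. That favours a rise, so the azurophil count is no support for one. Ly6g, by contrast, was listed at 0 in 5 of 5 isotype and 4 of 5 PD-1 Ab tumors, and Cxcr2 was at most 0.253 FPKM.

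Of CXCR2 ligands and growth factors tested, 0 of 4 rose and 2 fell (median -1.52). Of the 4, 3 passed the filter on low values through the isotype group alone, Csf3 among them. That favours a fall, so the count and the difference of Csf3 are no support for one. Csf3, which encodes G-CSF, the growth factor of granulocytes, went from 1.61 ± 0.610 FPKM (SD, n = 5) to 0.287 ± 0.153 (log2 fold change -2.16, limma adjusted p = 0.00172). Cxcl1 went from 15.5 ± 5.45 to 4.12 ± 0.529 FPKM (-1.81, limma adjusted p = 0.00106). In neither did the groups overlap. Of the receptors and relatives of the alarmins 0 of 9 were called, with Tlr4 at 0.98 and Ager at -0.79 the largest differences.

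Marker lists of other cells moved at day 15 as well, and their part in the members' values was not tested. T cell genes rose in 8 of 8 (median 2.72; Cd8b1 3.34, Cd8a 3.06, Cd3g 2.95), with summed levels of 11.7 to 24.3 FPKM under isotype and 47.9 to 196 under PD-1 Ab. Macrophage genes rose in 7 of 8 (among them Adgre1 1.56 and Csf1r 1.46; sums 807 to 1282 against 1517 to 3166), monocyte genes in 2 of 6 (Ly6c2 1.98, Cx3cr1 1.25), mast cell genes in 4 of 5 (Cpa3 3.04, Tpsb2 2.93, Cma1 2.71), progenitor genes in 2 of 5 (Kit 1.63, Cd48 1.26) and platelet genes in 1 of 3 (Pf4 1.06). None of 5 red blood cell, 2 eosinophil and 4 keratinocyte genes was called, with the largest differences in Hba-a2 (-1.61), Hbb-bt (-1.60), Siglecf (1.32), Ear2 (0.93), Krt5 (1.62) and Sbsn (0.59).

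At day 11, Retnlg was the member that differed. It was 0.861, 0.841, 0.658, 1.19 and 0.861 FPKM in the isotype tumors and 3.38, 3.40, 2.44, 10.6 and 11.5 in the PD-1 Ab tumors. All 5 PD-1 Ab tumors were above all 5 isotype tumors, which held for 3.59% of the 14556 genes, and 0.0618% had every PD-1 Ab tumor below. The log2 fold change was 2.43 ± 0.43 (SE), and it did not pass, at an adjusted p = 0.135 by limma. No gene passed in that comparison: 0% of genes were called higher and 0% lower, while 895 genes and 1 of the 5 members tested were under an unadjusted p of 0.05. The isotype tumor rich in mitochondrial RNA is in that group, and without it Retnlg had a log2 fold change of 2.42 with a limma adjusted p = 0.0395.

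Runs of sample identifiers also differ at day 11. Isotype tumors 1 to 3 form a run of their own, and tumors 4 and 5 share a run with the PD-1 Ab tumors. Within the shared run, Retnlg was 1.19 and 0.861 FPKM under isotype and 2.44 to 11.5 under PD-1 Ab. With the run as a covariate its log2 fold change was 2.22 (limma adjusted p = 1).

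The other members at day 11 gave no direction. S100a8 was 0, 2.63, 1.23, 1.06 and 6.46 FPKM under isotype and 4.22, 0.250, 0.940, 1.00 and 1.43 under PD-1 Ab. It was listed at 0 in the isotype tumor rich in mitochondrial RNA, its log2 fold change was -0.01 ± 0.98, and that was -0.92 without this tumor. S100a9 was highest in isotype tumor 5 (10.6 FPKM) and PD-1 Ab tumor 1 (7.15), the tumors in which S100a8 was highest too (-0.06 ± 0.86). Chil3 and Lcn2 differed by -0.01 ± 0.47 and 0.00 ± 0.50. The signs of these 4 turned in some fits that left out a tumor. Ngp, Camp and Elane were listed at 0 in all 5 PD-1 Ab tumors, and in the isotype tumors Camp and Elane in all 5 and Ngp in 4.

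Lists at day 11 gave 0 called genes each by limma, with unadjusted p under 0.05 in 6 of 14 mature neutrophil genes (largest differences Acod1 1.39 and Clec4d 1.25), 4 of 10 specific granule genes (Mmp8 1.77, Pglyrp1 1.43), 0 of 3 azurophil genes (Prtn3 0.60, Serpinb1a 0.52), 2 of 6 attractants (Csf3 -1.82, Cxcl1 -1.42) and 0 of 9 alarmin receptors and relatives (Cd14 0.86, Tlr4 0.73). Eosinophil genes had 3 of 4 under that p (Prg2 2.50, Ccr3 2.27), T cell genes 8 of 8 (Cd2 2.51, Cd3e 2.46), mast cell genes 4 of 5 (Mcpt4 1.98, Cma1 1.77), macrophage genes 5 of 8 (Mrc1 1.08, C1qa 1.03) and monocyte genes 3 of 6 (Ly6c2 1.15, F13a1 1.07). Red blood cell, platelet, progenitor and keratinocyte genes had 0 under it. Of the 4 eosinophil genes 3 passed the filter on low values through PD-1 Ab alone, Prg2 and Ccr3 among them. So did 1 of the 10 specific granule genes, Mmp8. That favours a rise, so the eosinophil count and the difference of Mmp8 are no support for one. The median over all genes tested was 0.26, and the fold changes of day 11 are to be read against that.

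The antibody effect of day 15 less that of day 11 was -1.99 ± 1.13 for S100a8, -1.98 ± 0.90 for Retnlg, -1.60 ± 0.76 for Chil3, -1.55 ± 1.10 for S100a9, -0.41 ± 0.79 for Lcn2 and 0.05 ± 0.91 for Ltf (log2, SE). The adjusted p from limma was 0.623 or more for each, and 0% of 15289 genes were called higher and 0% lower. Unadjusted p was under 0.05 for 2 of the 6 members and for 1182 genes. So a different antibody effect at the 2 days was not shown for any member.

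Between days within a treatment, 0 members were called by limma. Under PD-1 Ab, Chil3 went from 1.10 to 6.21 FPKM at day 11 to 0.175 to 1.22 at day 15 (log2 fold change -2.00 ± 0.57, adjusted p = 0.0397 by limma) and Retnlg from 2.44 to 11.5 to 0.306 to 8.49 (-1.83 ± 0.77, adjusted p = 0.116 by limma), and the other 4 tested were between -0.76 and 0.99. Ltf, at 0.99, passed the filter on low values through day 15 alone, which favours a rise, so its difference is no support for one. Of 15052 genes 0.0531% were called higher and 0.00664% lower. Under isotype the 5 members tested were between -0.39 (Chil3) and 1.23 (S100a8), with 0 of 5 under an unadjusted p of 0.05 against 996 of 14445 genes, and 0% of genes were called higher and 0% lower. The days lie in different runs of sample identifiers, so day and run cannot be told apart.

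Tumors of isotype-treated mice at day 15 had all 5 members tested called higher than cultured cells, where 14.2% of 15199 genes were called higher and 7.09% lower. Of those 5, 4 passed the filter on low values through the tumors alone, which favours that direction, so the count is no support for it. S100a9, Retnlg and Chil3 were listed at 0 in all 3 cultures, so they get no fold, and reached 0.585 to 7.47, 0.328 to 1.93 and 0.519 to 3.01 FPKM in the tumors (limma adjusted p = 0.000213, 0.000347 and 0.000153). The cultured cells themselves held low Lcn2 (0.164, 0.230 and 0.513 FPKM) and S100a8 (0.372, 0.463 and 0.673), both below every isotype tumor of day 15. The log2 fold changes were 2.59 ± 0.43 for Lcn2 (limma adjusted p = 0.000941) and 2.29 ± 0.53 for S100a8 (limma adjusted p = 0.00602). Without 1 or another sample S100a8 missed the threshold in 6 of 8 fits (adjusted p up to 0.0286). The S100a8 values under PD-1 Ab at day 15, 0.414 to 0.871 FPKM, overlapped the range of these cultures.

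Of the neutrophil lists, 3 of 3 azurophil genes (Prss57, Serpinb1a and Prtn3), 9 of 9 specific granule genes (led by Lyz2, Hp and Cybb), 13 of 14 mature neutrophil genes (led by Il1r2, Fpr2 and Csf3r) and 4 of 4 attractants (Cxcl2, Csf3 and Cxcl1 the largest) were called higher in tumors than in cultures. Of these, 2, 6, 14 and 3 of the genes tested passed the filter through the tumors alone. Of alarmin receptors and relatives Cd14 was called higher and S100a4 lower.

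The 3 baseline tumors, whose labels give no time, had Retnlg listed at 0 in all 3 and S100a9 in 2 of 3 (0.195 FPKM in the other). S100a8 was 0.399, 0.617 and 0.205 FPKM, and Chil3 was 1.39, 0.844 and 0.906. For S100a8, S100a9 and Retnlg every baseline tumor was below every isotype tumor of day 15. Of the 5 members tested, these 3 passed the filter on low values through the isotype group alone. That favours this direction, so the lack of overlap is no support for it, and its share over all genes was not computed. By limma 0 of 5 members were called. The adjusted p of S100a8, S100a9 and Retnlg were 0.0407, 0.0131 and 0.0110 by limma. The log2 fold change of S100a8 was -2.59 ± 0.56. Lcn2 was at -2.17 ± 0.54 (limma adjusted p = 0.0685) and Chil3 at -0.49 ± 0.50 (limma adjusted p = 0.639). In that comparison 0.428% of 14967 genes were called higher and 0.167% lower. Without isotype tumor 4, the lowest of its group in S100a8, S100a9, Retnlg and Chil3, 3 members were called lower in baseline tumors. None of the list genes of attractants or neutrophils was called either, with the largest differences in Cxcl1 (-2.26, limma adjusted p = 0.0109), Csf3 (-1.81), Hp (-3.35), Lyz2 (-0.96), Wfdc21 (-1.63), Trem1 (-1.49), Prss57 (-0.55) and Serpinb1a (-0.36). The 2 groups lie in different runs of sample identifiers, so group and run cannot be told apart.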

How the data were processed

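Total RNA of tumors and cultured cells was sequenced as ribosomal RNA-depleted stranded libraries with paired reads of 50 bases. The authors aligned them to the mouse genome (Mouse.B38, Ensembl R86) with OSA in Array Studio and deposited FPKM per gene, and tested counts, not used here, with DESeq2. Every number here was computed from the deposited FPKM. The members and gene lists were chosen with earlier results of these data known. Groups came from the labels, and the labels do not say that replicates are separate mice, so p-values measure the spread between samples.

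Symbols came from GENCODE M21 (99.1% of identifiers). Tests used limma 3.58.1 (lmFit, eBayes with a trend) in R 4.3.3 on log2(FPKM + 0.1), which understates changes of low genes, wherever either group's mean reached 0.5 FPKM. The fits were tested on simulated data. Benjamini-Hochberg adjustment was over all genes tested, and calls needed an adjusted p under 0.01 and 2-fold. All 10 members were named in every comparison. From each other list the 3 called genes with the largest change, or the 2 largest differences where none was called, were named, and the defining neutrophil markers and genes listed at 0 were named after their values were seen. A gene that this rule names among the macrophage genes is not reported here. Genes were ranked by likeness at a mean of at least 1 FPKM. The alternatives were 1 FPKM added, median-of-ratios scaling, no filter or one of 1 FPKM, eBayes without a trend, the replicate number as a block, the run of identifiers as a covariate, group medians, and leaving out each sample. No depth is known for any sample.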

Additional observations from a re-analysis of the deposited data

Results flagged for a closer look

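A single sample stood apart from the rest of its group in 7 of 60 pairs of member and group (Dixon's ratio on log2(FPKM + 0.1)), and chance flags about 5% of groups. In PD-1cKO this was Elane in tumor 7, at 5.10 FPKM against at most 0.602 in the other 9. In WT, tumor 3 stood apart in Camp (0.931 FPKM, the other 9 at most 0.220) and in Elane (0.128 FPKM, the other 9 at most 0.0280). The remaining 4 are groups in which the other 4 tumors were listed at 0. They were Elane in isotype tumor 1 of day 15 (0.182 FPKM), Ngp in isotype tumor 3 of day 11 (0.0818) and isotype tumor 2 of day 15 (0.140), and Camp in isotype tumor 3 of day 15 (0.103). Ngp, Ltf and S100a8 in PD-1cKO tumor 7 were not apart by this measure, since tumors 4 and 8 lie between it and the others. No member's antibody effect differed between day 11 and day 15 at the call threshold.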

How the results depend on the processing

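The count of members called in PD-1 Ab against isotype at day 15 went from 1 to 0 with 1 FPKM added, with no filter, with eBayes without a trend and with the replicate block, and ranged from 0 to 2 when a tumor was left out. The limma adjusted p of S100a8 was 0.0101 with 1 FPKM added, 0.0237 with no filter, 0.0128 without a trend and 0.0141 with the block. The replicate numbers did not pair the samples (1 of 5 same-numbered pairs at most correlated above 0.1 in any comparison), and the block took the calls over all genes at day 15 from 799 to 316, as testing with no filter took them to 450. When a sample was left out, the members called ranged from 4 to 5 against cultured cells (S100a8 lost its call in 6 of 8 fits), from 0 to 3 for baseline against isotype day 15 (3 without isotype tumor 4), and stayed at 0 at day 11, between days and for the difference of the antibody effects. The median PD-1cKO minus WT difference of the members ranged from 1.93 (without PD-1cKO tumor 7) to 2.62, and with the run as a covariate the difference of Chil3 went from 2.75 to 0.36. Signs turned only where a fold change was near 0 or its SE was as large as the fold change. Chil3 at day 11 was 0.0229 with 1 FPKM added, and Retnlg in isotype day 15 against day 11 was -0.10 with median-of-ratios scaling. With a sample left out, the log2 fold changes at day 15 ranged from -0.71 to 0.0859 for Lcn2 and from -0.19 to 0.91 for Retnlg. At day 11 they ranged from -0.36 to 0.28 for Lcn2, from -0.92 to 0.59 for S100a8, from -0.63 to 0.65 for S100a9 and from -0.42 to 0.18 for Chil3. Retnlg between days under isotype ranged from -0.0739 to 0.49, and the difference of the antibody effects from -0.34 to 0.36 for Ltf and from -0.71 to 0.0865 for Lcn2. The cause of these shifts was not tested. The depth of the libraries is unknown, so values near 0 carry no known precision.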
